A study of Mus musculus with 8 samples.

Results

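The Schlafen family is a group of related genes that lie side by side on mouse chromosome 11. Its 7 members here were Slfn1, Slfn2, Slfn3, Slfn4, Slfn5, Slfn8 and Slfn9, taken by symbol from the 28239 symbols of the count table. The family was chosen by its measured values in the comparison described here, with earlier results known. Its own folds and adjusted p-values are therefore a description and support nothing further.

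Schlafen genes are induced by type I interferon, and their proteins share an N-terminal Schlafen core that in several members cleaves or binds tRNA. Mouse members are sorted by length. The short members Slfn1 and Slfn2 hold little beyond the core, the intermediate members Slfn3 and Slfn4 add a linker domain, and the long members Slfn5, Slfn8 and Slfn9 also carry a helicase-like domain and a nuclear localisation signal. The family was first described in thymocytes, where Slfn1 held back growth. Slfn2 is needed for the quiescence and survival of T cells and protects tRNAs from stress-induced cleavage.

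The libraries were made from regulatory T cells (Tregs) of 4 Alox15-/- (KO) and 4 WT mice of C57BL/6 background. Alox15 encodes a lipoxygenase that makes precursors of pro-resolving lipid mediators. Naive CD4+ T cells were taken from the spleens of mice aged 10 to 12 weeks by magnetic negative selection, and in both groups they received IL-2, TGF-β and CD3/CD28 beads for 2 days. The methods give Charles River as the source of the WT mice and The Jackson Laboratory as that of the Alox15-/- mice, and name both sexes without tying a sex to a library. Genotype and source of the mice cannot be told apart. RNA was read by MACE-seq, which counts fragments near the 3′ end of transcripts, although the labels name a small-RNA kit.

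Library totals were 3723151 to 6952596 counts in the group labelled Alox15-/- and 4810125 to 9538962 in the group labelled WT. The targeted gene ran against the labels. Alox15 was at 70.5, 69.2, 63.7 and 65.3 CPM (counts scaled to a common library size by the TMM method) in the 4 libraries labelled Alox15-/- and at 1.88, 2.56, 7.77 and 9.02 CPM in those labelled WT. A 3′ count outside the deleted part cannot check a deletion, and where the deletion lies was not given in the sources used here, so groups are named below by their labels. Summed T cell markers spanned 3650 to 4220 CPM in the libraries labelled Alox15-/- and 4010 to 4320 CPM in those labelled WT, and summed Treg markers 2320 to 2530 and 2350 to 2830 CPM. None of the 11 T cell and 7 Treg markers was past the threshold. Foxp3 was at 71.7, 95.5, 93.0 and 114 CPM in the libraries labelled Alox15-/- and at 109, 102, 195 and 93.4 CPM in those labelled WT. Markers of several other cell types differed. Erythroid markers summed to 908 to 3490 CPM against 33.9 to 123 CPM, with 5 of 5 tested markers past the threshold, and mast cell and basophil markers to 133 to 335 against 57.2 to 80.6 CPM, with 6 of 7. Myeloid markers summed to 190 to 508 against 119 to 161 CPM, with 6 of 8 past the threshold. Ctss, which overlapped between the groups, supplied 129 to 152 and 106 to 142 CPM of these myeloid sums. Kit overlapped as well, and supplied 25.3 to 40.3 and 30.3 to 35.3 CPM of the mast cell and basophil sums. Eosinophil markers summed to 21.4 to 78.4 against 1.25 to 10.4 CPM, with 2 of 2 past it, and NK and gamma-delta T cell markers to 89.8 to 188 against 37.5 to 55.8 CPM, with 4 of 7. B cell markers went the other way, at 6.52 to 9.46 against 9.41 to 23.9 CPM, with 1 of 2 past the threshold. Dendritic cell markers (76.4 to 101 against 47.5 to 71.0 CPM) and CD8 T cell markers (12.1 to 21.9 against 21.5 to 31.8 CPM) held none past it. Bst2, which is also in the interferon-stimulated list below, supplied 73.1 to 94.2 and 44.6 to 66.6 CPM of the dendritic sums. In the NK and gamma-delta T cell list, the gamma-delta receptor genes Trdc, Tcrg-C1, Tcrg-C2 and Tcrg-C4 kept the groups apart. Tcrg-C4 was at 13.8 to 31.8 against 5.25 to 7.77 CPM. The other genes of that list, among them the NK genes Klrk1 and Gzma, overlapped between the groups. Gzma was at 3.02 to 22.3 against 3.93 to 12.5 CPM. The part of these cells in the Schlafen values, and in the gene lists given below, was not tested. In bulk RNA, fewer cells of a type and less RNA per cell cannot be told apart.

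The cluster spans 344 kb of chromosome 11 in GRCm38 and starts 12.6 Mb beyond the end of Alox15 on the same chromosome. The sequences before the start sites are shown first because the members are known as interferon-responsive genes. They come from RefSeq (GRCm38.p6), which had a window for 7 of 7 members, and each is the run of 250 bases before an annotated start, written 5′ to 3′ on the strand of the gene. Capitals mark the letters GAAANNGAA or their reverse, the core of an interferon-stimulated response element. Windows with this core were those of the 3 long members, and the window of the short member Slfn1 is shown beside them because Slfn1 had the smallest adjusted p of the family.
Slfn5 (chr11:82951852-82952101, plus strand): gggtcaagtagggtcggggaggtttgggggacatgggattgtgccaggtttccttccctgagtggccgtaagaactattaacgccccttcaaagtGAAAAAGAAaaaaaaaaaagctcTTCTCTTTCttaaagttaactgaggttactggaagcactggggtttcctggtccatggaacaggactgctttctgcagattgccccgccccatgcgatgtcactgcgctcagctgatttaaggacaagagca
Slfn8 (chr11:83020811-83021060, minus strand): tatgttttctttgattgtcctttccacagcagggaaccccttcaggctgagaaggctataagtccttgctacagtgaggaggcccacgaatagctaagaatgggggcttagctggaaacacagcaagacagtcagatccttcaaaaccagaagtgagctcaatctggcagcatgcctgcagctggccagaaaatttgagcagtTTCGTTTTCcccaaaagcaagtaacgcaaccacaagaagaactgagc
Slfn9 (chr11:82991831-82992080, minus strand): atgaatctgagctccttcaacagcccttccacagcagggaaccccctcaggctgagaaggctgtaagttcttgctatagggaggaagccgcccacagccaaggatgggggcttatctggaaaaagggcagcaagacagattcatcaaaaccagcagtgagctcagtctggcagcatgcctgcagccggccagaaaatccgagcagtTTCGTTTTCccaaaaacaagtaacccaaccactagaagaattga
Slfn1 (chr11:83116570-83116819, plus strand): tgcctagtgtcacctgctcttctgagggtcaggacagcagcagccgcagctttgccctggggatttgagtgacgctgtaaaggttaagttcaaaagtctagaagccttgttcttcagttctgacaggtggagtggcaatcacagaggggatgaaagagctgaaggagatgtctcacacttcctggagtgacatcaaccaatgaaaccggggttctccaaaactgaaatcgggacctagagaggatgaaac

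The core was searched on both strands in windows of 300 bases, from 250 before to 50 after each start, and 8.56% of the 32851 mouse windows held it. It occurred in Slfn5 with 2 matches, in Slfn8 and in Slfn9, and these letters were not in the windows of Slfn1, Slfn2, Slfn3 and Slfn4. The windows of Slfn8 and Slfn9 were 80.7% identical over 305 aligned columns, and the capitals in both read the same. Part of the Slfn5 window is exon in other Slfn5 transcripts of GENCODE. The letters TTCNNNGAA, the core of a gamma-activated site, were in 8.3% of windows and in none of those of the 7 members. A match is a run of letters and not a measured binding site.

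Among the 7 members, Slfn1 and Slfn8 were higher in the libraries labelled Alox15-/- in edgeR's quasi-likelihood test with Benjamini-Hochberg adjustment over 12700 genes, at a threshold of 0.05 on the adjusted p. Slfn5 was higher by a similar fold and missed that threshold. Slfn2, Slfn3 and Slfn9 overlapped between the groups. Slfn4 was close to 0 in every library and did not pass the filter of at least 2 CPM in at least 4 libraries. In all, 6 of 7 members were tested, with fold changes above 0 in 6 of 6, beside 48.2% of all genes tested. The 2 members past the threshold stand beside 158 of all 12700 genes (1.24%), or 133 genes that were higher (1.05%). The groups did not overlap for 2 members, beside 2.74% of all tested genes with every library labelled Alox15-/- above every library labelled WT. The median log2 fold change was 0.47 over the 6 tested members and -0.0075 over all genes tested. These counts describe a family chosen on the same contrast, and 1 member at low values did not enter them.

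**Figure D1:**
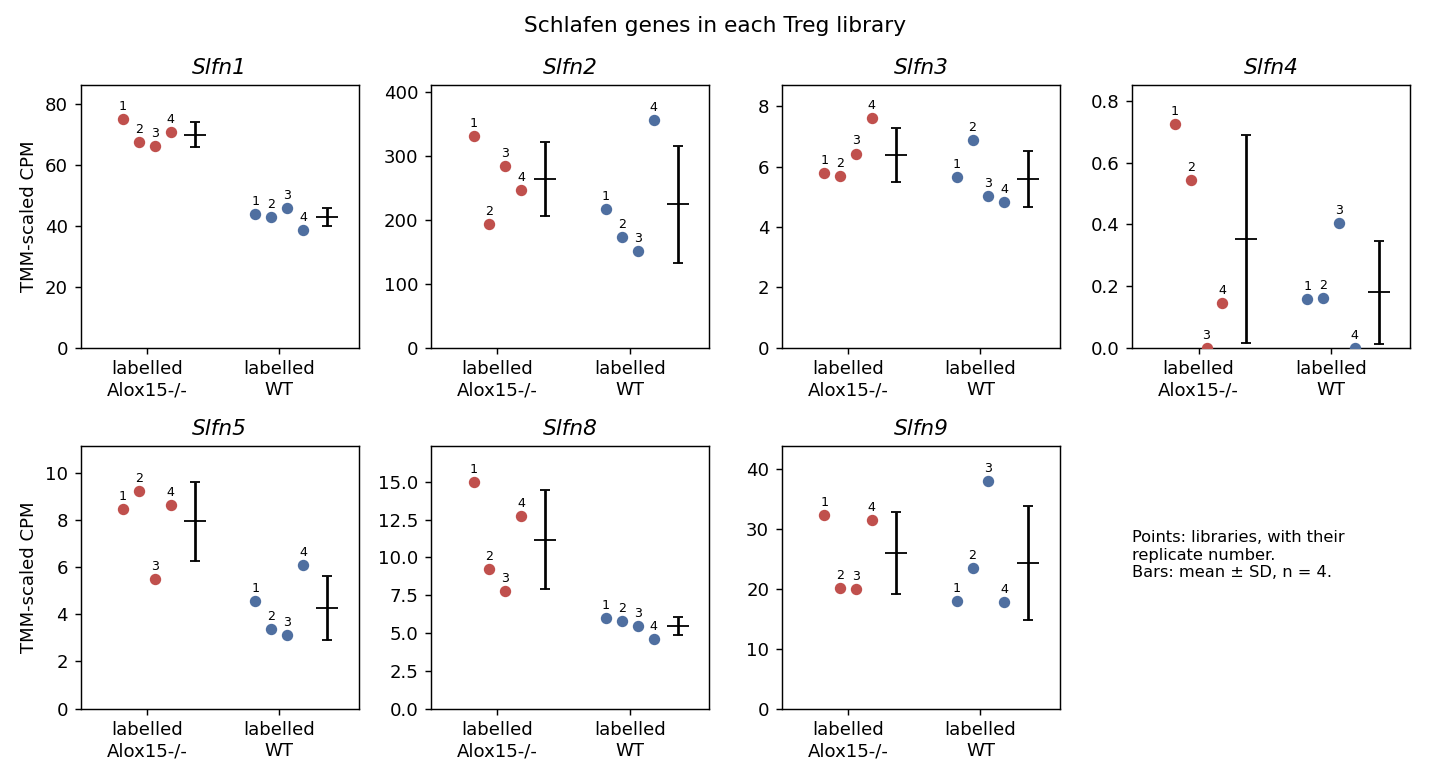
TMM-scaled CPM of each Schlafen gene in each library, with libraries labelled Alox15-/- in red, libraries labelled WT in blue, replicate numbers above the points and the mean ± SD of 4 libraries in black; each panel has its own axis from 0. Slfn1 and Slfn8 show no overlap between the groups, Slfn5 overlaps through 1 library on each side, and Slfn4 stays under 1 CPM.

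Slfn1 (ENSMUSG00000078763.2; 337 residues; chr11:83116849-83122670, plus strand) is the short member first tied to the arrest of T cell growth. It was at 75.3, 67.6, 66.2 and 70.9 CPM in the libraries labelled Alox15-/- and at 44.1, 42.9, 45.8 and 38.8 CPM in those labelled WT. The groups were apart, with every library of the first above every library of the second. The means were 70.0 ± 4.06 and 42.9 ± 2.96 CPM (SD, n = 4 each), and the log2 fold change was 0.70 with a standard error of 0.103 and an adjusted p of 0.00129 in edgeR. Without each library in turn the log2 fold change stayed between 0.66 and 0.74, and the adjusted p reached at most 0.00807. Within the libraries labelled Alox15-/-, replicates 2 and 3 had the highest erythroid sums (3320 and 3490 CPM) and the lowest Slfn1.

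Slfn2 (ENSMUSG00000072620.3; 378 residues; chr11:83065112-83070678, plus strand) is the short member that keeps T cells quiescent. It was at 332, 194, 284 and 247 CPM in the libraries labelled Alox15-/- and at 217, 173, 151 and 356 CPM in those labelled WT. The highest library of all 8 was labelled WT, and the groups overlapped. The means were 264 ± 58.6 and 224 ± 91.6 CPM (SD, n = 4 each), with a log2 fold change of 0.24, a standard error of 0.221 and an adjusted p of 0.849 in edgeR. The log2 fold change was 0.55 without WT replicate 4 (adjusted p 0.165 in edgeR), and it was 0.10 without WT replicate 3, 0.12 without Alox15-/- replicate 1 and 0.14 without WT replicate 2. Slfn2 took 60.7% to 83.1% of the reads of the family, so the summed family followed it. That sum was 469.8, 305.9, 389.6 and 378.7 CPM in the libraries labelled Alox15-/- and 294.9, 256.1, 249.2 and 427.7 CPM in those labelled WT, and again overlapped through WT replicate 4.

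Slfn3 (ENSMUSG00000018986.10; 640 residues; chr11:83191330-83215154, plus strand) is an intermediate member. It was at 5.79, 5.70, 6.43 and 7.62 CPM in the libraries labelled Alox15-/- and at 5.64, 6.89, 5.04 and 4.83 CPM in those labelled WT, from 21 to 53 reads a library. The groups overlapped, and the log2 fold change was 0.21 with a standard error of 0.220 and an adjusted p of 0.871 in edgeR. Slfn4 (ENSMUSG00000000204.16; 602 residues; chr11:83175186-83190216, plus strand), the other intermediate member and one best known from myeloid cells, had 3, 2, 0 and 1 reads in the libraries labelled Alox15-/- and 1, 1, 4 and 0 reads in those labelled WT. A count of 0 allows up to 3 counts for counting error alone. By library total, without TMM scaling, this is 0.546 CPM in Alox15-/- replicate 3 and 0.624 CPM in WT replicate 4. At this level no difference between the groups could be seen.

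Slfn5 (ENSMUSG00000054404.13; 884 residues; chr11:82951349-82964840, plus strand) is a long member. It was at 8.45, 9.23, 5.48 and 8.63 CPM in the libraries labelled Alox15-/- and at 4.55, 3.36, 3.13 and 6.09 CPM in those labelled WT. In the first group 3 of 4 libraries lay above all those labelled WT, and replicate 3 lay below WT replicate 4. The means were 7.95 ± 1.68 and 4.28 ± 1.35 CPM (SD, n = 4 each), and the log2 fold change was 0.92 with a standard error of 0.266 and an adjusted p of 0.189 in edgeR. The adjusted p was 0.0495 without WT replicate 4 and between 0.135 and 0.484 without any other library. Slfn5 overlaps the antisense gene Slfn5os, which had 0, 1, 5 and 1 reads in the libraries labelled Alox15-/- and 0, 1, 0 and 0 in those labelled WT. Whether strand was used in the counting was not given in the sources used here, so reads of the pair cannot be told apart.

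Slfn8 (ENSMUSG00000035208.16; 910 residues; chr11:83002158-83020810, minus strand) is a long member. It was at 15, 9.23, 7.75 and 12.7 CPM in the libraries labelled Alox15-/- and at 5.96, 5.77, 5.45 and 4.62 CPM in those labelled WT. The groups were apart, and the spread was wider in the higher group. The means were 11.2 ± 3.27 and 5.45 ± 0.592 CPM (SD, n = 4 each), and the log2 fold change was 1.03 with a standard error of 0.229 and an adjusted p of 0.0376 in edgeR. This call was near the threshold. It held in 1 of 8 fits with a library left out, that without Alox15-/- replicate 3 (adjusted p 0.0230), and in the other 7 the adjusted p was between 0.0638 and 0.173 while the log2 fold change stayed between 0.87 and 1.10. It was also lost in limma-voom (adjusted p 0.0611). Replicates 2 and 3, highest in erythroid markers, were also the lowest in Slfn8 among the libraries labelled Alox15-/-. For Slfn5, replicate 2 was the highest of these libraries (9.23 CPM) and replicate 3 the lowest (5.48 CPM). A relation of either gene to the erythroid markers was not tested. By p among 12700 genes Slfn8 was at rank 148, and Slfn5, which missed the threshold, at rank 234.

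**Figure D2:**
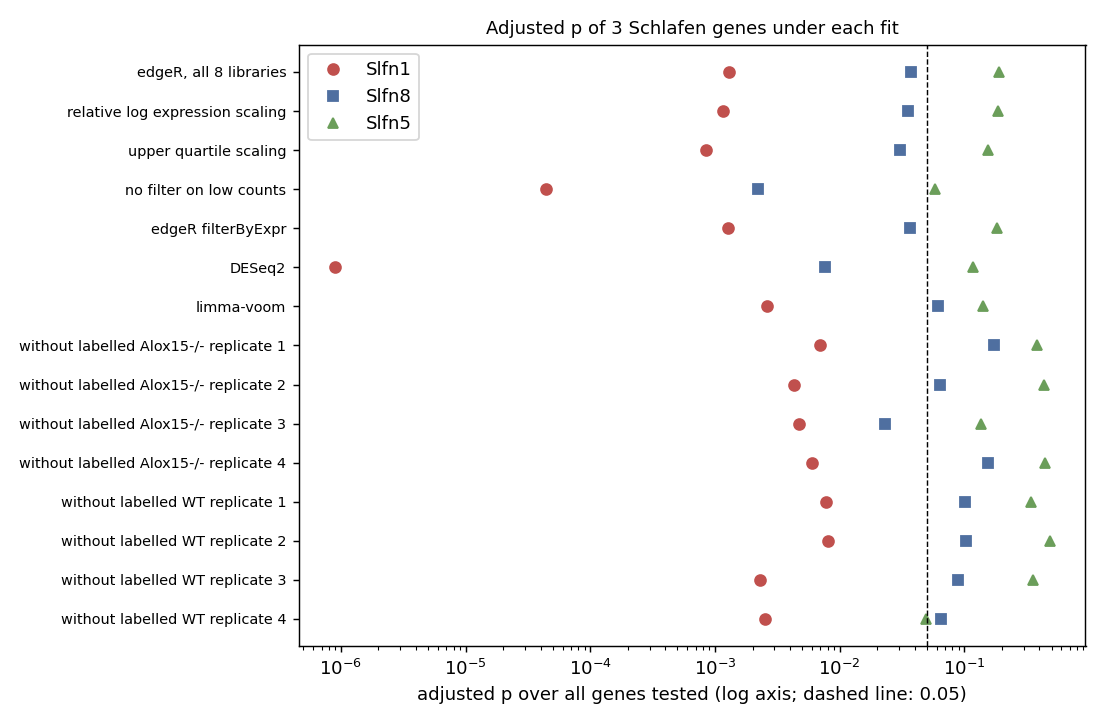
Adjusted p over all genes tested, on a log axis, for Slfn1, Slfn8 and Slfn5 (points) under 15 fits (rows), with the threshold of 0.05 as a dashed line. Slfn1 lies below the threshold in every row, Slfn8 lies on either side of it, and Slfn5 lies below it only in the row without WT replicate 4.

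Slfn9 (ENSMUSG00000069793.12; 910 residues; chr11:82978390-82991830, minus strand) is the long member most like Slfn8. It was at 32.3, 20.1, 19.9 and 31.4 CPM in the libraries labelled Alox15-/- and at 17.9, 23.5, 38.0 and 17.8 CPM in those labelled WT. The highest library was WT replicate 3, and the groups overlapped. The log2 fold change was 0.07 with a standard error of 0.240 and an adjusted p of 0.969 in edgeR, and without each library in turn it ran from -0.05 to 0.40, so that no direction was set. The ratio of Slfn9 to Slfn8 reads, in which library size drops out, was 2.16, 2.18, 2.56 and 2.48 in the libraries labelled Alox15-/- and 3.0, 4.08, 6.98 and 3.86 in those labelled WT. Every ratio of the first group lay below every ratio of the second. Slfn8 alone already kept the groups apart, so this order is not independent of it.

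Parts of the 3′ ends are shared between members, so how reads were divided among them is uncertain. Over its last 500 bases, Slfn8 matched Slfn9 at 89.0% identity along 335 bases and the pseudogene Slfn10-ps at 92.3% along 273 bases, and Slfn3 matched Slfn4 at 93.7% along 490 bases. The end of Slfn2 matched Slfn3 at 95.1% and Slfn4 at 92.3% along 143 bases, and Slfn1 at 85.5% along 131 bases. Searched in turn, the last 500 bases of Slfn1, Slfn4, Slfn5 and Slfn9 gave no match among the Schlafen transcripts. Those of Slfn10-ps matched Slfn8 at 94.2% along 502 bases and Slfn9 at 91.5% along 505 bases. Each end was taken from the longest coding transcript of the gene, or for Slfn10-ps its longest transcript, and searched against all transcripts at full length. Slfn10-ps had 4 to 15 reads a library, Slfn14 had 0 to 2, and neither passed the filter. The rows of Slfn8, Slfn9 and Slfn10-ps were also summed, a step chosen after the data were seen, in which Slfn9 supplies most of the reads. The sum was at 49.2, 31.8, 30.1 and 44.7 CPM in the libraries labelled Alox15-/- and at 25.2, 30.0, 44.8 and 25.6 CPM in those labelled WT. The groups overlapped in this sum, with a log2 fold change of 0.30, a standard error of 0.199 and an adjusted p of 0.782 in edgeR. Slfn3 and Slfn4 summed gave a log2 fold change of 0.23 (adjusted p 0.849 in edgeR).

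Pairs of members differed in how closely they varied together from library to library. Over 8 libraries Slfn1 and Slfn8 had a Pearson r of 0.93 for log2 CPM, and after the mean of each group was taken away it was 0.79. Slfn1 and Slfn5 had an r of 0.74 that became -0.31 within groups, so that this likeness lay in the difference between the groups. Slfn1 and Slfn9, with an r of 0.32 over all libraries, had one of 0.77 within groups. Slfn2 had an r with the other members between -0.28 and 0.57 over 8 libraries and between -0.42 and 0.52 within groups. All of these share their libraries, depth and scaling, and are given as descriptions.

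**Figure D3:**
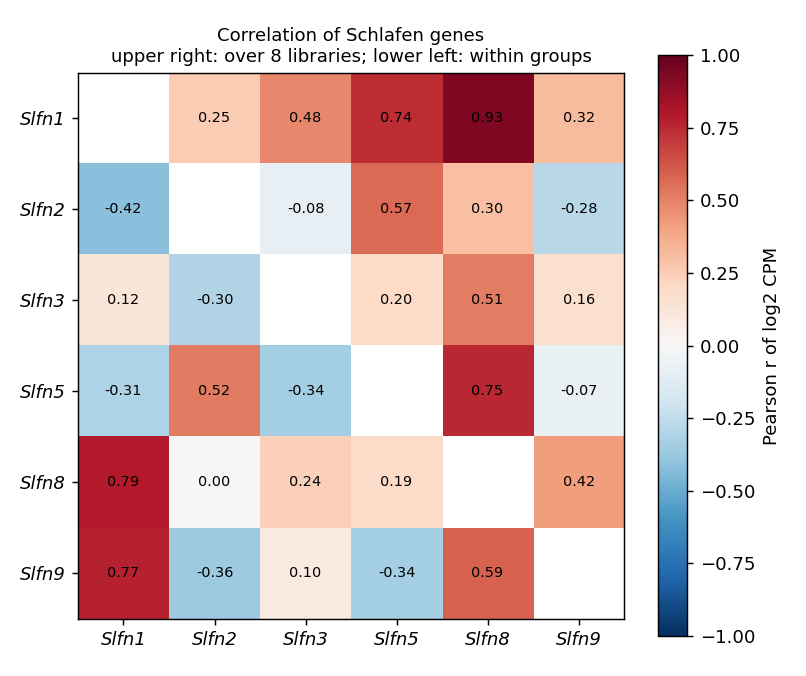
Pearson r of log2 CPM between the 6 tested Schlafen genes, over 8 libraries in the upper right and after removal of the group means in the lower left, on a colour scale from -1 to 1. Slfn1 and Slfn8 are at 0.93 and 0.79, whereas Slfn1 and Slfn5 go from 0.74 to -0.31.

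Over 8 libraries the 5 tested genes with the highest r to Slfn1 were Gvin1, Gm5292, Xaf1, Gpr34 and Ms4a6b, at 0.962 to 0.971. Their values follow the group difference in part, since within groups Gvin1 and Ms4a6b were at 0.83 and 0.81 whereas Gm5292, Gpr34 and Xaf1 were at 0.16, 0.32 and 0.42. Gvin1 encodes an interferon-inducible very large GTPase, and Gvin1 was itself higher in the libraries labelled Alox15-/- (log2 fold change 1.52, adjusted p 0.000834 in edgeR). For Slfn2 the 5 nearest genes were Jkamp, Bcl2a1a, Mrps18b, Cd274 and Rora, at 0.947 to 0.968 over 8 libraries and 0.95 to 0.99 within groups. Bcl2a1a belongs to the BCL2 family of survival genes, Cd274 encodes PD-L1 and Rora a nuclear receptor. None of these 5 passed the threshold between the groups, with log2 fold changes of 0.08 to 0.17. Both sets of 5 were picked as the highest r among all genes tested, so their high values follow from the choice.

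Most other interferon-stimulated genes in a list had fold changes above 0, as Slfn1 and Slfn8 did. Of 60 listed genes 52 were tested. Of these, 46 had a fold change above 0 and 6 below, beside 48.2% above 0 among all genes tested. Past the threshold were 12, each of them higher (23.1%, beside 1.24% of all genes). The median log2 fold change of the 52 tested genes was 0.35. Xaf1, which counters an inhibitor of apoptosis, had a log2 fold change of 2.23 (11 ± 1.5 against 2.26 ± 0.616 CPM, SD, n = 4 each). Xaf1 lies on chromosome 11 between Alox15 and the Schlafen cluster, a stretch described below. Isg15, a ubiquitin-like modifier, was at 1.59, and Usp18, the protease that removes it and damps the receptor, at 1.42. Irgm2 and Gbp2, GTPases of cell-autonomous defence, were at 1.06 and 0.88, and Ifi27 at 0.85. The other 6 were Ifit3, Irf7, Gbp7, Ifi27l2a, Isg20 and Ube2l6, at 0.56 to 1.58. This count depended on single libraries. It was 7 without Alox15-/- replicate 1, 5 without replicate 2 or 3, 4 without WT replicate 1 and 5 without WT replicate 2. With no filter on low counts it was 19. Since the list was written with results of these libraries known, it is not independent of them.

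The next list held the interferon receptors, kinases and STAT factors that act above these genes. Of 23 listed genes 22 were tested, 15 had a fold change above 0 and 7 below, with a median of 0.12. Past the threshold were 2 genes (9.09%, beside 1.24% of all genes). They were Irf7, a transcription factor of the interferon response (log2 fold change 1.26), and Usp18 (1.42), both of which are also in the list before. The count was 0 without Alox15-/- replicate 3 or WT replicate 1, 1 without Alox15-/- replicate 1 or 2 or WT replicate 2, and 3 without WT replicate 3, with no filter on low counts or in DESeq2.

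The lists for what Schlafen proteins are known to do, T cell quiescence and tRNA cleavage, held no gene past the threshold. With 1.24% of all genes past it, lists of this size would hold few or none, and the counts of 0 are near that background. Of 28 genes of T cell quiescence 27 were tested, with 14 fold changes above 0 and 13 below and a median of 0.03. In edgeR 0 were past the threshold, 4 had an unadjusted p under 0.05, and DESeq2 and limma-voom called 0. The values furthest from 0 included those of Il7r, the interleukin-7 receptor of resting T cells (19.1 ± 3.50 against 13.0 ± 3.10 CPM, log2 fold change 0.54, adjusted p 0.415 in edgeR), and Cdkn1b, an inhibitor of the cell cycle (0.42, adjusted p 0.458 in edgeR). As far on the other side was Tnfaip3, which restrains NF-κB signalling, at 41.6 ± 12.3 against 56.5 ± 31.9 CPM (-0.42, adjusted p 0.782 in edgeR). Of 24 genes of tRNA cleavage and the integrated stress response 23 were tested, with 10 fold changes above 0 and 13 below and a median of -0.04. In edgeR 0 were past the threshold, 2 had an unadjusted p under 0.05, and DESeq2 and limma-voom called 0. Eif2ak3, a kinase of the stress response, was at -0.35 and Ddit3, a stress-induced transcription factor, at 0.32, with adjusted p-values of 0.637 and 0.738 in edgeR.

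**Figure D4:**
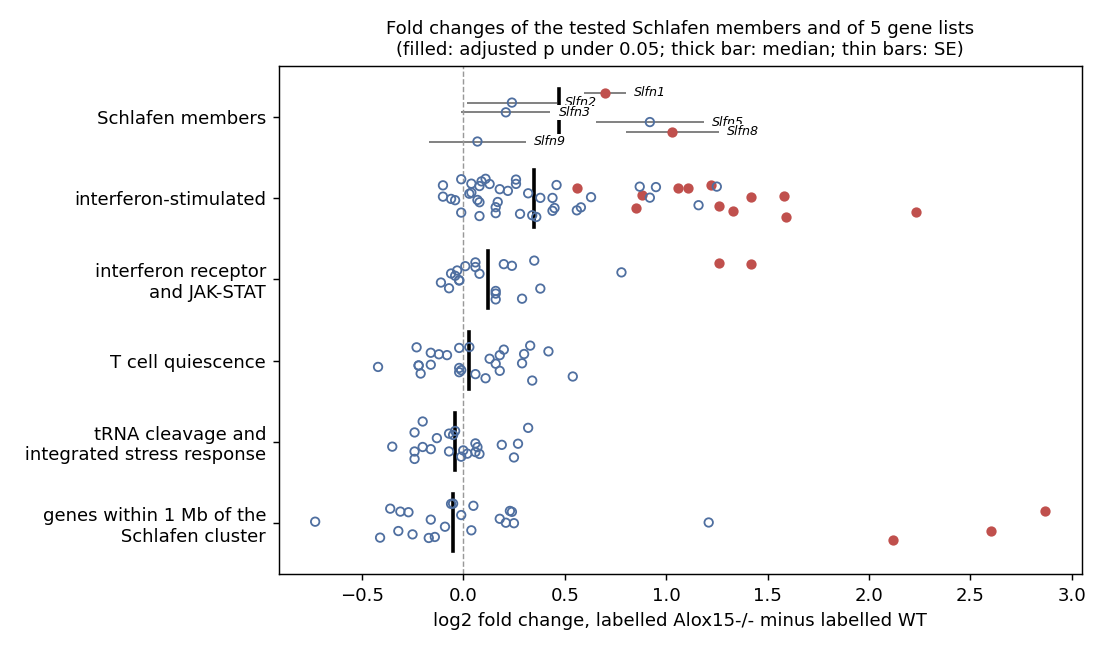
Log2 fold changes (labelled Alox15-/- minus labelled WT) of the 6 tested Schlafen members with their standard errors and of the tested genes of 5 lists (rows; vertical spread within a row is only for display), with genes past the threshold filled and medians as thick bars. The interferon-stimulated list has 12 filled points, all above 0, and the quiescence and tRNA lists have none.

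The neighbours of the cluster were examined because the members share one stretch of chromosome with Alox15. Of 83 annotated genes within 1 Mb of the cluster, Schlafen genes left out, 25 were tested, 11 with a fold change above 0 and 14 below, and their median was -0.05. Past the threshold were 3, all higher (12%, beside 1.24% of all genes). AA465934, 4.97 kb beyond the cluster, was at 55.1 ± 9.02 against 12.5 ± 3.69 CPM (log2 fold change 2.12, adjusted p 1.92e-05 in edgeR). The chemokine genes Ccl9 and Ccl6, 286 and 301 kb beyond it and known from myeloid cells, were at log2 fold changes of 2.87 and 2.60 and were read beside the myeloid sums given above. Inside the cluster Gm11425, AI662270 and Gm11427 were at 0.05, -0.01 and 0.21, and Nle1, the nearest tested gene on the other side, at 0.18. Between Alox15 and the cluster 6 of 146 tested genes were past the threshold, or 4.11%, all higher. The count near the cluster was 5 without WT replicate 4, and it was 2 in limma-voom, where Ccl6 was lost.

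**Figure D5:**
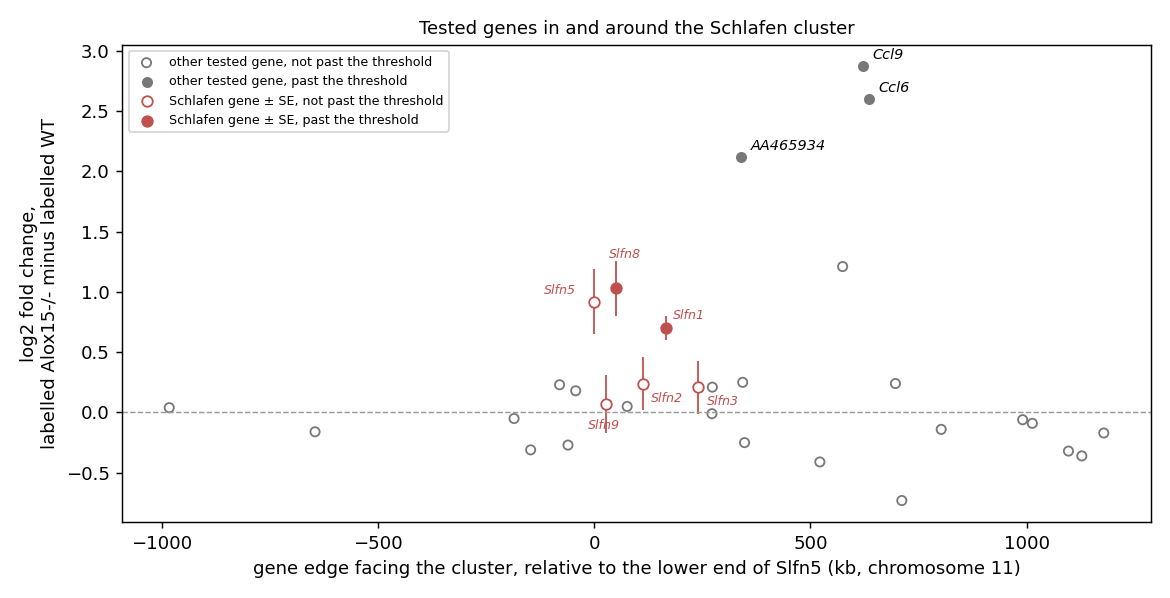
Log2 fold change of each tested gene (vertical axis) by its distance in kb from the lower end of Slfn5 (horizontal axis), with Schlafen genes in red with standard errors, other genes in grey and genes past the threshold filled. Slfn8 and Slfn1 are filled between unfilled members, and the filled neighbours AA465934, Ccl9 and Ccl6 lie on one side of the cluster.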

How the data were processed

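The authors deposited 1 table of raw counts with a row per gene symbol and a column per library. The submitters' processing notes name Bowtie, edgeR and GRCm38, and removal of duplicate reads was not given in the sources used here. Columns were assigned to libraries by their titles.

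A symbol was kept where 4 or more libraries reached 2 CPM (12700 of 28239), as the methods do. Counts were scaled by TMM and fitted in edgeR 4.0.16 (R 4.3.3) by quasi-likelihood with genotype as the only term, adjusted by Benjamini-Hochberg over all genes tested. The standard error was the size of the log2 fold change divided by the square root of F. The biological coefficient of variation was 14.5%. Totals ranged from 3723151 to 9538962, so a member with 21 reads carries a wide counting error. The design text gives 4 mice per group, so p-values measure the spread between these libraries. The steps were tested on simulated data.

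Alternatives were other scalings, no filter, filterByExpr, DESeq2 1.42.0, limma-voom 3.58.1, a replicate block and each library left out. Positions and coding lengths came from GENCODE vM21, in which 97.0% of tested symbols matched 1 gene. Ends of transcripts were compared with blastn 2.17.0 (e-value up to 1e-05). Named genes were all members, the other Schlafen rows, Alox15, up to 6 genes past the threshold per list by smallest p or otherwise the 2 with the largest fold, genes near the cluster past the threshold or nearest to it, and the 5 genes most like Slfn1 and Slfn2. Ddit3, Tnfaip3, the remaining called interferon genes and the genes inside the cluster were given after their values were seen. The members and lists were chosen with earlier results of these data known.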

Additional observations from a re-analysis of the deposited data

How the results depend on the processing

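Slfn1 kept its direction and its call under the 7 other scalings, filters, tools and block and under the 8 fits with a library left out. The number of members past the threshold was 2 with all libraries and 1 to 2 with each library left out. It was 1 in limma-voom and 1 with a replicate block, where Slfn8 was the member lost. It was 1 with rows of similar 3′ ends summed, where Slfn8 has no row of its own. With the 2 KO libraries highest in erythroid markers left out it was 2, but these were also the lowest KO libraries for Slfn1 and Slfn8, so their folds could only rise and this says nothing of stability. Both of these last settings were chosen after seeing the data. Slfn9 ran from -0.05 to 0.40 with a library left out and changed sign without KO replicate 1, KO replicate 4 or WT replicate 4 (-0.04 each) and without WT replicate 1 (-0.05). The interferon-stimulated count of 12 was 19 with no filter on low counts (the cause was not tested) and 4 to 12 with a library left out. The JAK-STAT count of 2 was 1 with the replicate block and 0 to 3 with a library left out. The count near the cluster, 3, was 6 with no filter, 4 in DESeq2, 2 in limma-voom (Ccl6 lost) and 3 to 5 with a library left out. The quiescence and tRNA counts were 0 throughout. The replicate numbers did not pair the libraries, since same-numbered deviations from the group means had r of 0.07, 0.17, -0.18 and -0.02. With the last 300 bases, Slfn3 matched Slfn4 at 90.7% along 290 bases, Slfn8 matched Slfn9 at 87.3% along 134 bases and Slfn10-ps at 87.7% along 73 bases, and Slfn2 matched no other Schlafen transcript. On the given strand alone 4.48% of promoter windows held the response element core. Depth limits Slfn3, Slfn4 and Slfn5 most, with at most 60 reads a library.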
